A study of Sus scrofa with 4 samples.

Results

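The genes examined here encode the lysosomal proton pump, its accessory proteins, the cathepsins, the lysosome-associated membrane proteins (LAMP) and the LAMTOR proteins in mature porcine oocytes, with and without copper (Cu) in the maturation medium. Members were taken by gene symbol, and the choice was made with earlier results of these data known. The deposited table has 47 rows with such symbols, and 41 of them hold values, out of 16050 genes with values. These 41 are 11 genes of the V1 sector and 8 genes of the V0 sector of the pump, 3 genes of the ATP6AP group, 11 cathepsins, 3 LAMP genes and 5 LAMTOR genes. The 6 rows without values are ATP6V1B1, ATP6V1FNB, ATP6V1G3, CTSO, CTSW and LAMP3.

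The oocytes came from ovaries of a slaughterhouse and were cultured as cumulus-oocyte complexes to metaphase II, for 44 h. The Control oocytes had no added Cu, and the Cu oocytes had copper sulfate in the same medium at 25 μg/mL. The 4 libraries, Control 1, Control 2, Cu 1 and Cu 3, were each made from 3 oocytes by Smart-seq2 amplification, which copies polyadenylated transcripts from very small samples. The values are FPKM, fragments scaled to the length of the transcript and to the size of the library. Scaling to length lets levels of different genes be compared, but only roughly. It does not correct for how well each polyadenylated transcript was copied, which was not tested. FPKM also do not keep the number of reads. The depth of the libraries is therefore unknown. Paired values are given for Control 1 before Control 2, called the Controls, and for Cu 1 before Cu 3. The paper describes separate sets of oocytes for the libraries of a group. The sources used here do not say whether these sets came from separate cultures or animals. The p-values therefore measure only the spread between these libraries, which may be partly technical and may not hold variation between cultures or animals.

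The vacuolar ATPase is a rotary pump that uses ATP to move protons into lysosomes and other vesicles of the secretory and endocytic routes. Its V1 sector in the cytosol hydrolyses ATP, and its V0 sector in the membrane carries the protons. The acid pH activates the cathepsins, the proteases that break down proteins in the lysosome, while LAMP proteins coat the inner face of the lysosomal membrane and the LAMTOR proteins form the Ragulator complex, which holds the Rag GTPases and with them mTORC1 at the lysosomal surface.

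The oocyte identity of the libraries was checked with markers. All 11 oocyte markers with values were at 1 FPKM or more in at least 3 of the 4 libraries. Their summed level was 7116 and 9830 FPKM in the Controls and 9019 and 8428 FPKM in the Cu libraries. Single markers were less even than this sum. Their median difference from the Control mean, on log2(FPKM + 1), was 0.70 in Cu 1 and 0.087 in Cu 3, against 0.31 and 0.002 over all tested genes. The fold change was above 0 for 8 markers and below 0 for 3, where 64.3% of all tested genes were above 0. Of 23 markers of cumulus and granulosa cells, 15 had values, with sums of 13.4 and 21.0 FPKM in the Controls and 30.8 and 27.6 FPKM in the Cu libraries. Most of that sum was FST and SERPINE2. FST is also made by oocytes, and SERPINE2 had 1.59 and 2.93 FPKM in the Controls and 14.2 and 12.7 FPKM in the Cu libraries. VCAN had 0.92 and 1.43 FPKM in the Controls and 1.32 and 0.49 FPKM in the Cu libraries. TNFAIP6 had 0.38 and 0 FPKM in the Controls and 0.97 and 0 FPKM in the Cu libraries. The other markers with values, with CYP19A1, STAR, HSD3B1 and AMH among them, were between 0 and 0.41 FPKM in every library. FSHR, LHCGR and CYP11A1 are listed without values. Leukocyte markers were at 0.20 to 0.64 FPKM in sum, over 3 markers with values out of 12. The 3 red cell markers with values of 6 listed, AHSP, HBM and SLC4A1, summed to 0.26 and 0.04 FPKM in the Controls and 2.69 and 2.53 FPKM in the Cu libraries. SERPINE2 had a log2 fold change of 2.18, and AHSP is listed at 0 in the Controls and at 1.88 and 1.80 FPKM in the Cu libraries. For SERPINE2 the unadjusted p in limma's test (0.0014) was smaller than that of any member, at an adjusted p of 0.631. AHSP had an unadjusted p of 0.0026 in that test and the same adjusted p. It entered the test only through the Cu libraries, so its p is not set against those of the members. The part of these differences in the results below was not tested, and in such samples fewer cells of a type and less RNA per cell cannot be told apart.

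Taken over all members, several pump and LAMTOR transcripts were abundant, most cathepsin transcripts were scarce, and no difference between Cu and Control passed correction. The members held 0.216% and 0.245% of all FPKM in the Controls, and 0.28% and 0.286% in the Cu libraries. Of the 41 members, 29 reached 1 FPKM in at least 2 libraries, which was the condition for testing, and all 29 reached 1 FPKM in at least 1 Control library. The remaining 12 stayed at or under 3.18 FPKM in every library and were not tested. At an adjusted p of 0.05 limma's test over 8541 genes called 0 members, and the smallest adjusted p among them was 0.641. Over all tested genes the share at that limit was 0.0%. When p was left unadjusted, 2 of the 29 members, LAMTOR2 and CTSS, were higher in Cu at 0.05 and 0 were lower. The corresponding shares of all tested genes were 5.58% higher and 1.43% lower, so 2 of 29 was close to the background. The Cu pair lay entirely above the Control pair in 8 of 29 members and entirely below it in 2, where the background was 25.4% and 13.4%. For a single gene, the exact two-sided permutation test has 0.33 as its smallest possible p at this number of libraries. The median log2 fold change of the members, computed on log2(FPKM + 1), was 0.27, and that of all tested genes was 0.16. The fold change was above 0 for 21 of the 29 members, where the background was 64.3%. After quantile normalization these medians were 0.09 and -0.049, so the median over all genes moved with the scaling too.

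**Figure D1:**
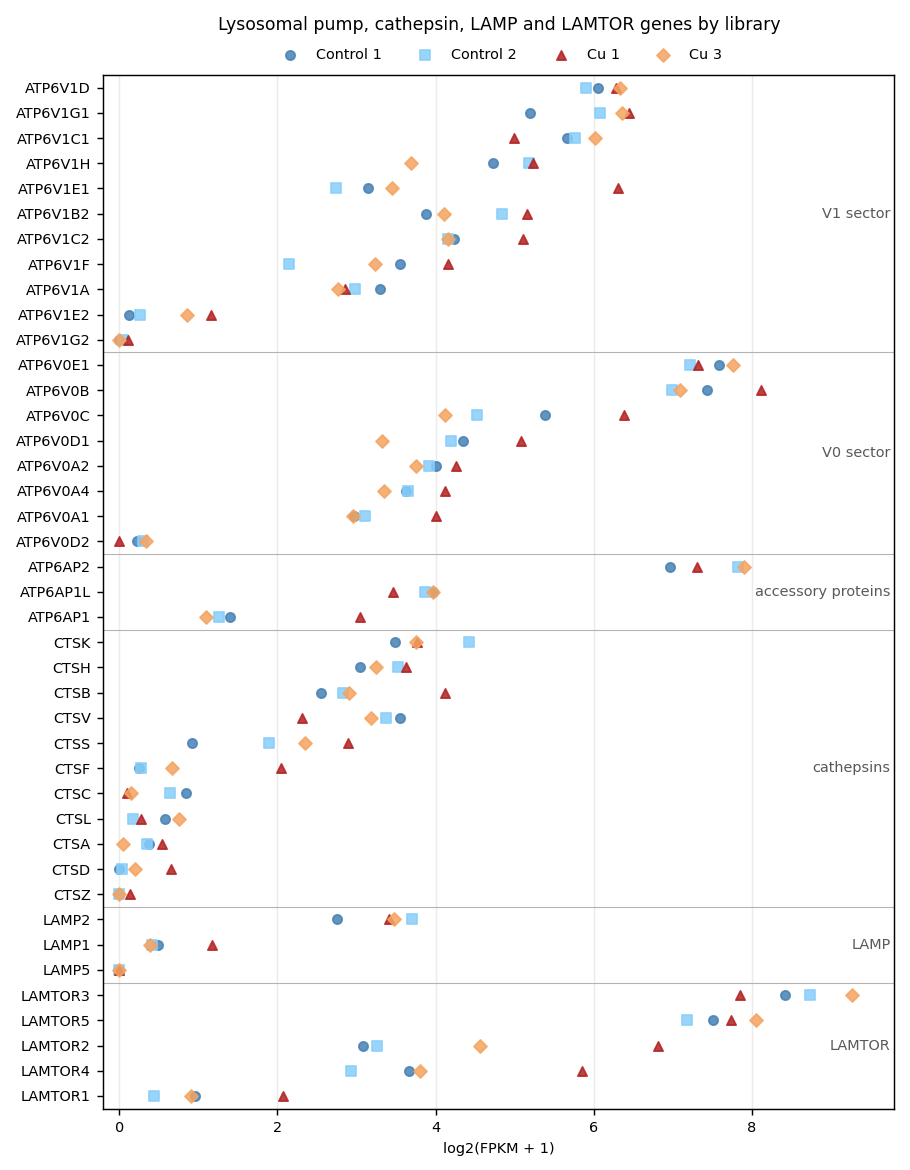
Level of each of the 41 members in each library, as log2(FPKM + 1) on the horizontal axis, with 1 row per gene grouped by role and 1 symbol per library. The Cu 1 triangles stand apart to the right for ATP6V1E1, LAMTOR2 and LAMTOR4, and 6 of the 11 cathepsins and LAMP1 lie near the left edge apart from CTSF and LAMP1 in Cu 1.

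In the V1 sector, ATP6V1D and ATP6V1G1 were the most abundant transcripts and ATP6V1A, the catalytic subunit, the least abundant of the 9 tested. ATP6V1D, a subunit of the central rotor, had 65.2 and 59.0 FPKM in the Controls and 77.0 and 79.4 FPKM in the Cu libraries. ATP6V1G1, a subunit of the peripheral stalks, had 35.7 and 66.7 FPKM in the Controls and 86.4 and 81.2 FPKM in the Cu libraries. In both genes the groups did not overlap, with Cu above, and the Cu libraries lay close together. Their log2 fold changes were 0.33 (95% interval -0.36 to 1.02) and 0.77 (95% interval -0.17 to 1.70), and neither interval excluded 0. For ATP6V1G1 it was 0.32 without Control 1 and 1.21 without Control 2. ATP6V1A, which binds and hydrolyses ATP, had 8.86 and 6.87 FPKM in the Controls and 6.24 and 5.82 FPKM in the Cu libraries. It was the only tested gene of the pump with Cu entirely below Control, at a log2 fold change of -0.33 (95% interval -1.21 to 0.56). The group means that the authors give beside the libraries have the form of means over 3 libraries in all 16050 rows with values, so they rest on 1 library a group more than was analysed here. On that wider set of libraries ATP6V1A had 6.34 FPKM for Control and 7.75 FPKM for Cu, the opposite direction. The other subunit of the catalytic ring, ATP6V1B2, had 13.7 and 27.5 FPKM in the Controls and 34.6 and 16.2 FPKM in the Cu libraries, so the groups overlapped.

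The largest difference in the pump was that of ATP6V1E1, a subunit of the peripheral stalks (chromosome 5, 69752644 to 69772038 in the RefSeq annotation of Sscrofa11.1). It had 7.83 and 5.69 FPKM in the Controls, 78.1 FPKM in Cu 1 and 9.89 FPKM in Cu 3. Neither Cu value fell within the Controls, but Cu 1 was 7.89 times Cu 3, while Cu 3 was 1.46 times the Control mean. The log2 fold change was 1.93 (95% interval -0.26 to 4.13, unadjusted p = 0.074 in limma's test over all genes), and without Cu 1 it was 0.50. Its paralogue ATP6V1E2 was not tested, with 0.09 and 0.20 FPKM in the Controls and 1.23 and 0.81 FPKM in the Cu libraries. ATP6V1E1 held between 92.4% and 98.9% of the summed FPKM of the E subunit genes, and ATP6V1E2 held the rest, at most 7.57%, in Cu 3. ATP6V1F, a further rotor subunit, had 10.7 and 3.44 FPKM in the Controls and 16.9 and 8.39 FPKM in the Cu libraries, with overlapping groups.

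Subunit C, which takes part in the reversible joining of V1 and V0, is encoded by ATP6V1C1 and ATP6V1C2, and the balance of both differed in 1 library. ATP6V1C1 had 49.7 and 53.4 FPKM in the Controls, 30.9 FPKM in Cu 1 and 63.6 FPKM in Cu 3. ATP6V1C2 had 17.8 and 16.8 FPKM in the Controls, 33.4 FPKM in Cu 1 and 16.9 FPKM in Cu 3. The Cu libraries lay on opposite sides of the Control libraries for ATP6V1C1. ATP6V1C2 therefore made up 26.4% and 24.0% of the C subunit FPKM in the Controls, 51.9% in Cu 1 and 21.0% in Cu 3. The summed FPKM of both genes stayed between 64.3 and 80.5 in the 4 libraries. ATP6V1H, which also links catalysis to the joining of the sectors, had 25.5 and 35.3 FPKM in the Controls, 36.7 FPKM in Cu 1 and 11.9 FPKM in Cu 3, so that Cu 3 was the lowest and Cu 1 the highest library. The last V1 member, ATP6V1G2, stayed at or under 0.08 FPKM, and ATP6V1G1 held at least 99.9% of the G subunit FPKM in every library.

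In the V0 sector the means of the 7 tested genes ranged from 9.07 to 178 FPKM, and for none of them were the groups separated. ATP6V0E1, a small membrane subunit, had 191 and 147 FPKM in the Controls and 158 and 216 FPKM in the Cu libraries. ATP6V0B, a proteolipid of the rotating membrane ring, had 172 and 126 FPKM in the Controls and 277 and 136 FPKM in the Cu libraries. ATP6V0C, the main proteolipid of the same ring, had 40.8 and 22.0 FPKM in the Controls, 82.4 FPKM in Cu 1 and 16.3 FPKM in Cu 3. The highest and the lowest value of ATP6V0C were thus both from Cu libraries, with Cu 1 at 5.05 times Cu 3. The same held for ATP6V0D1, which couples the ring to the V1 rotor, with 19.3 and 17.3 FPKM in the Controls, 32.8 FPKM in Cu 1 and 8.97 FPKM in Cu 3. ATP6V0D2, its paralogue, stayed at or under 0.26 FPKM and is listed at 0 in Cu 1. The 95% interval of the log2 fold change was -0.61 to 0.89 for ATP6V0E1, -0.62 to 1.41 for ATP6V0B and -1.57 to 2.16 for ATP6V0C.

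The a subunit of V0 forms the path for protons, and its isoforms direct the pump to different membranes. All 3 isoforms with values were tested, and ATP6V0A2 was the highest of them in each library. ATP6V0A2 had 15.1 and 14.1 FPKM in the Controls and 18.2 and 12.5 FPKM in the Cu libraries. ATP6V0A4 had 11.3 and 11.6 FPKM in the Controls and 16.4 and 9.16 FPKM in the Cu libraries. ATP6V0A1 had 6.85 and 7.59 FPKM in the Controls and 15.1 and 6.73 FPKM in the Cu libraries. In all 3 genes Cu 1 was the highest and Cu 3 the lowest library. ATP6V0A2 held the largest share of the a subunit FPKM in every library, 45.4% and 42.3% in the Controls, 36.6% in Cu 1 and 43.9% in Cu 3, and the share of ATP6V0A4 stayed between 32.3% and 34.8%. The annotated span of ATP6V0A2 overlaps SUMO4 and that of ATP6V0A4 overlaps TMEM213, so reads of these neighbours may have entered their values.

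Cu 1 was the highest of the 4 libraries in 12 of the 16 tested pump genes and in 18 of all 29 tested members, while over all tested genes it was the highest in 51.0%. The median difference of the 16 pump genes from the Control mean was 0.80 in Cu 1 and -0.10 in Cu 3 on the log2(FPKM + 1) scale, and over all tested genes it was 0.31 in Cu 1 and 0.002 in Cu 3. For the 7 genes of V0 these differences were 0.81 and -0.21. In 16 of the 29 tested members the Cu libraries lay on opposite sides of the Control mean, against 42.7% of all tested genes. The gap between Cu 1 and Cu 3 was larger than the fold change between the groups in 21 of 29 members, against 66.2% of all tested genes. Across the 29 members, which are not replicates, levels on the log2(FPKM + 1) scale had a Pearson's r of 0.95 for Control 1 with Control 2, 0.836 for Cu 1 with Cu 3, and 0.94 and 0.952 for Cu 3 with each Control. Cu 3 was thus closer to the Control libraries than to Cu 1, and the same was seen over all 8541 tested genes, where r was 0.959 and 0.965 for Cu 3 with each Control and 0.923 for Cu 1 with Cu 3. In Cu 1 9364 genes reached 1 FPKM, and between 7923 and 8162 did so in the other libraries. Its part in the values of Cu 1 was not tested.

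**Figure D2:**
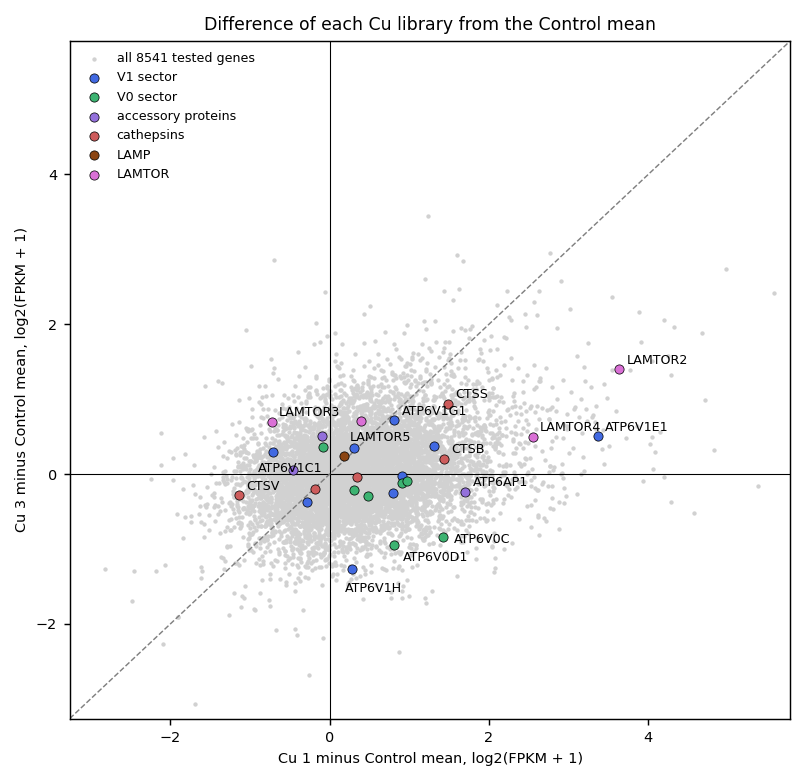
Difference of Cu 1 (horizontal axis) and Cu 3 (vertical axis) from the mean of the Control libraries, on the log2(FPKM + 1) scale, for the 29 tested members (coloured by role) and all 8541 tested genes (grey). The dashed line marks equal differences, and most pump genes lie below it. The pump genes above 0 for Cu 1 and below 0 for Cu 3 are ATP6V1B2, ATP6V1C2, ATP6V1H, ATP6V0A1, ATP6V0A2, ATP6V0A4, ATP6V0B, ATP6V0C and ATP6V0D1.

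Among the accessory proteins, ATP6AP2 was one of the most abundant members and ATP6AP1 the least abundant one tested. ATP6AP2, also known as the prorenin receptor, assists assembly of the pump. It had 124 and 225 FPKM in the Controls and 157 and 238 FPKM in the Cu libraries, with overlapping groups and a log2 fold change of 0.21 (95% interval -0.77 to 1.18). ATP6AP1, which binds V0 in the endoplasmic reticulum during assembly, had 1.65 and 1.40 FPKM in the Controls, 7.22 FPKM in Cu 1 and 1.14 FPKM in Cu 3. Only Cu 1 stood apart, at 4.73 times the Control mean, and Cu 3 was the lowest library. ATP6AP1L, a gene related to ATP6AP1, had 14.6 and 13.5 FPKM in the Controls and 9.98 and 14.6 FPKM in the Cu libraries. In each library it was above ATP6AP1.

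A separate list of 14 genes for assembly and regulation of the pump had 13 genes with values and 7 tested. Of these 0 passed an unadjusted p of 0.05 in either direction, where the background was 5.58% higher and 1.43% lower. The fold change was above 0 for 2 and below 0 for 5, where 64.3% of all tested genes were above 0. The median log2 fold change was -0.24. Without Cu 1 the median was 0.079. This list and those below were written from gene symbols, with earlier results of these data known.

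Of the 11 cathepsins with values, 5 were tested and 6 stayed low. CTSK had 10.2 and 20.4 FPKM in the Controls and 12.6 and 12.5 FPKM in the Cu libraries. CTSK, a collagen-degrading enzyme best known from osteoclasts, was the highest of the cathepsins by its mean, and both Cu values lay between the Control values. Its span overlaps ARNT. CTSH, an aminopeptidase, had 7.28 and 10.5 FPKM in the Controls and 11.4 and 8.48 FPKM in the Cu libraries, and its share of the cathepsin FPKM lay between 20.4% and 20.8% in the 4 libraries. CTSH was thus the steadiest of the cathepsins in its share. CTSB, one of the most widely expressed cysteine cathepsins, had 4.88 and 6.11 FPKM in the Controls, 16.4 FPKM in Cu 1 and 6.46 FPKM in Cu 3. The groups did not overlap for CTSB, but Cu 3 exceeded Control 2 only narrowly, and the log2 fold change went from 0.82 (95% interval -0.41 to 2.04) to 0.21 without Cu 1.

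CTSS was the cathepsin with the smallest p (chromosome 4, 98415273 to 98442952). CTSS is a cysteine protease that stays active at neutral pH and is best known from antigen-presenting cells. It had 0.89 and 2.72 FPKM in the Controls and 6.43 and 4.09 FPKM in the Cu libraries. The groups did not overlap, although Control 2 differed more from Control 1, in ratio, than Cu 3 did from Control 2. The log2 fold change was 1.21 (standard error 0.47, 95% interval 0.058 to 2.37). Before adjustment limma gave 0.042 as the p, and over all tested genes the adjusted p was 0.677. Without Control 1 the log2 fold change was 0.73 and limma's unadjusted p was 0.332. After quantile normalization the unadjusted p was 0.0548, and without a filter on low values it was 0.0837. The authors' group means, over 3 libraries that include those analysed here, had the same direction, 2.04 FPKM for Control and 5.73 FPKM for Cu. Of 12 leukocyte markers listed, only 3 had values, PTPRC, CD74 and LCP1, and these were at or under 0.32 FPKM in every library. SERPINE2 and the sum of the red cell markers were, like CTSS, higher in both Cu libraries than in the Controls. The cell source of the CTSS transcripts was not tested.

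CTSV went the other way. CTSV is a close relative of CTSL, and the RefSeq gene table lists CTSL among the older names of this pig gene, so the assignment of reads between both rows is uncertain. It had 10.7 and 9.36 FPKM in the Controls, 3.98 FPKM in Cu 1 and 8.07 FPKM in Cu 3. Its Cu values were both under the lower Control, with a log2 fold change of -0.71 (95% interval -1.76 to 0.34) and an authors' mean of 9.37 FPKM for Control and 5.65 FPKM for Cu. The log2 fold change of CTSV was -0.28 without Cu 1 and -1.14 without Cu 3. CTSV made up 29.9% and 18.6% of the cathepsin FPKM in the Controls, 7.19% in Cu 1 and 19.6% in Cu 3, while CTSB made up 13.7% and 12.2%, 29.7% and 15.7%. CTSB was therefore the leading cathepsin in Cu 1 and CTSK the leading one in Control 2 and Cu 3, whereas CTSV led in Control 1. The summed FPKM of the 11 cathepsins stayed between 35.8 and 55.3, and the highest Control library was above the lowest Cu library.

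The 6 untested cathepsins were CTSF, CTSC, CTSL, CTSA, CTSD and CTSZ. CTSD, the main aspartic protease of lysosomes in most cells, is listed at 0 and 0.02 FPKM in the Controls and at 0.57 and 0.15 FPKM in the Cu libraries. CTSL, a cysteine protease, was between 0.13 and 0.69 FPKM, and CTSA, which protects other lysosomal enzymes, between 0.03 and 0.45 FPKM. CTSC, which activates granule proteases of leukocytes, had 0.79 and 0.56 FPKM in the Controls and 0.07 and 0.11 FPKM in the Cu libraries. CTSF had 0.19 and 0.21 FPKM in the Controls, 3.12 FPKM in Cu 1 and 0.59 FPKM in Cu 3. CTSZ is listed at 0 in every library but Cu 1, where it had 0.10 FPKM. The precision of such low values is not known, so no fold is given for them.

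**Figure D3:**
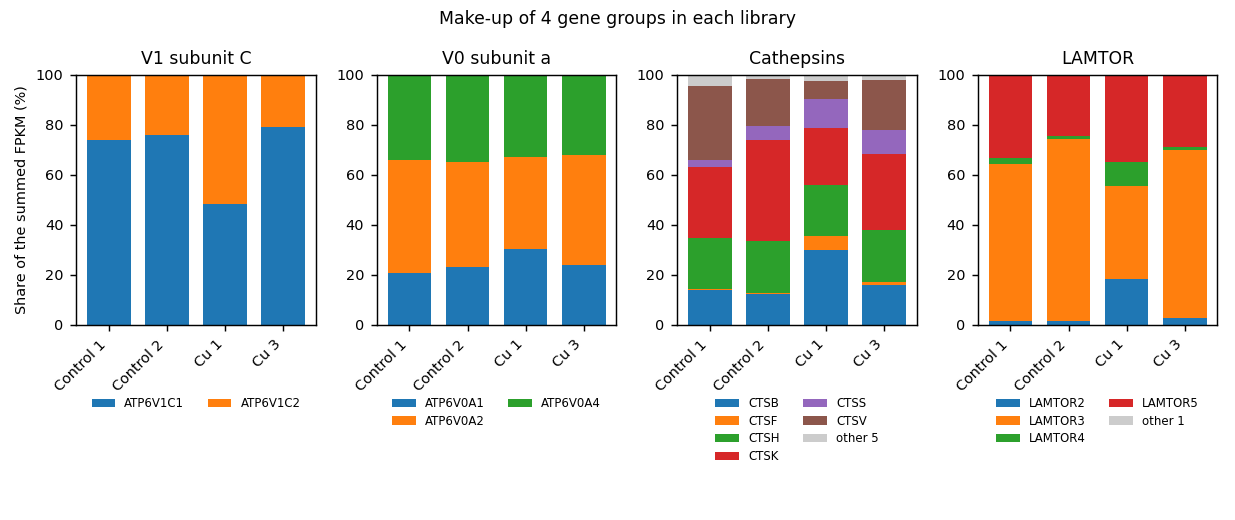
Share of the summed FPKM (percent, vertical axis) held by each gene in 4 gene groups, with 1 stacked bar per library. Genes under 5% in every library are joined in grey. In Cu 1 the bars of ATP6V1C2, CTSB, LAMTOR2 and LAMTOR4 are larger and those of CTSV and LAMTOR3 smaller than in the other 3 libraries.

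The cathepsin inhibitors had 5 genes with values of 14 listed and 4 tested, of which 1 passed an unadjusted p of 0.05, upward, where the background over all tested genes was 5.58%. This was CSTB, the cytosolic inhibitor of cysteine cathepsins, with 4.17 and 5.91 FPKM in the Controls and 21.3 and 17.3 FPKM in the Cu libraries. The groups were far apart for CSTB and the Cu libraries close together. The fold change on the log2 scale was 1.75 with a standard error of 0.37, and limma gave an adjusted p of 0.631. Of the 30 tested lysosomal hydrolases, 3 were higher and 1 was lower at an unadjusted p of 0.05, with a median log2 fold change of 0.12, where 5.58% and 1.43% of all tested genes were. The higher ones were GLB1 (beta-galactosidase), PSAP (the precursor of the saposins) and AGA (aspartylglucosaminidase), at log2 fold changes of 1.10, 1.15 and 0.86. In the Controls PSAP had 0.73 and 0.31 FPKM, and AGA had 0.26 and 0.77 FPKM. Both entered the test only through the Cu libraries, which favours an upward call, so they are not counted as support. Of the 30 tested hydrolases, 28 reached 1 FPKM in a Control library. The lower one was LGMN, the asparaginyl endopeptidase that processes cathepsins. LGMN had 178 and 208 FPKM in the Controls and 124 and 92.6 FPKM in the Cu libraries, which is -0.84 on the log2 scale with a standard error of 0.30, and limma gave an adjusted p of 0.656. After quantile normalization the list had 1 gene higher and 6 lower, at a background of 4.23% and 3.37%. The counts of the list thus depended on the scaling. Without Cu 1 its median log2 fold change was 0.12. In each library LGMN was above the sum of all 11 cathepsins.

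Only LAMP2 was tested among the LAMP genes. LAMP2, which is also the receptor of chaperone-mediated autophagy, had 5.76 and 12.04 FPKM in the Controls and 9.59 and 10.1 FPKM in the Cu libraries. Both Cu values lay between the Control values, and the log2 fold change was 0.21 (95% interval -0.86 to 1.28). LAMP1, in most cells an abundant protein of the lysosomal membrane, had 0.40 and 0.33 FPKM in the Controls, 1.26 FPKM in Cu 1 and 0.31 FPKM in Cu 3. LAMP5, known from neurons and plasmacytoid dendritic cells, is listed at 0 in all 4 libraries. LAMP2 held between 88.4% and 97.3% of the LAMP FPKM. Of 27 tested genes of other lysosomal membrane proteins and transporters, 0 were higher and 1 was lower at an unadjusted p of 0.05, against 5.58% and 1.43% of all tested genes, with a median log2 fold change of 0.10 that was -0.063 without Cu 1. The lower one was SLC17A5, the sialic acid exporter, with 76.6 and 89.1 FPKM in the Controls and 50.0 and 46.7 FPKM in the Cu libraries. This is -0.76 on the log2 scale with a standard error of 0.29, at an adjusted p of 0.666 by limma.

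The means of the LAMTOR genes ranged from 1.34 to 402 FPKM, although their products are subunits of the same complex. LAMTOR3, the most abundant member of all, had 339.8 and 424 FPKM in the Controls, 229 FPKM in Cu 1 and 616 FPKM in Cu 3. Cu 1 was the lowest and Cu 3 the highest library, and the log2 fold change was -0.016 (95% interval -1.21 to 1.18). LAMTOR5 had 180.3 and 144 FPKM in the Controls and 211 and 264 FPKM in the Cu libraries, a log2 fold change of 0.55 (95% interval -0.16 to 1.25). Its groups did not overlap. The authors' group means, which take in a further library of each group, were 207 FPKM for Control and 210.0 FPKM for Cu, and both libraries of the Control group analysed here lay under that Control mean. LAMTOR1, the lipid-anchored subunit that fixes Ragulator to the membrane, was the least abundant, with 0.95 and 0.36 FPKM in the Controls, 3.18 FPKM in Cu 1 and 0.88 FPKM in Cu 3, and was not tested.

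LAMTOR2, the partner of LAMTOR3 in the complex, had the smallest p of all members (chromosome 4, 93972112 to 93975561). It had 7.44 and 8.57 FPKM in the Controls, 111 FPKM in Cu 1 and 22.7 FPKM in Cu 3. The Control libraries were close together, and both Cu libraries were above them, at 13.8 and 2.83 times the Control mean. The log2 fold change was 2.52 (standard error 0.72, 95% interval 0.75 to 4.28). Before adjustment limma gave 0.013 as the p, and over all tested genes the adjusted p was 0.641. The log2 fold change was 1.40 without Cu 1 and 3.64 without Cu 3. Each of these fits rests on 1 Cu library, so no spread among Cu libraries enters and no call is drawn from it. Without Control 1 the unadjusted p of LAMTOR2 was 0.0502. The authors' group means, over 3 libraries, were 10.0 FPKM for Control and 48.1 FPKM for Cu. These means include the libraries analysed here, with Cu 1 among them, so they are not separate support. Both Control libraries analysed here lay under that Control mean, so the separation of the groups is not known for the wider set of libraries. LAMTOR4, the partner of LAMTOR5, had 11.7 and 6.64 FPKM in the Controls, 56.7 FPKM in Cu 1 and 12.9 FPKM in Cu 3. The groups did not overlap for LAMTOR4, but Cu 3 exceeded Control 1 only narrowly, with a log2 fold change of 1.52 (95% interval -0.21 to 3.26) that was 0.50 without Cu 1. The annotated span of LAMTOR4 overlaps 4 other RefSeq genes, C3H7orf43, GAL3ST4, GPC2 and LOC110259877, whose reads may have entered its value.

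Within each of the partner pairs the ratio of the transcripts differed between libraries. LAMTOR2 made up 1.38% and 1.47% of the LAMTOR FPKM in the Controls, 18.1% in Cu 1 and 2.47% in Cu 3, and LAMTOR3 made up 62.9% and 72.6%, 37.4% and 67.2%. LAMTOR4 made up 2.17% and 1.14% in the Controls, 9.29% in Cu 1 and 1.41% in Cu 3, and LAMTOR5 33.4% and 24.7%, 34.6% and 28.8%. The shares of LAMTOR4 and LAMTOR5 therefore overlapped between the groups, and that of LAMTOR2 was higher in both Cu libraries. The median log2 fold change of the 4 tested LAMTOR genes was 1.04, against 0.33 for V1, 0.14 for V0, 0.15 for the cathepsins and 0.16 for all tested genes. Without Cu 1 the LAMTOR median was 0.70, that of V1 0.30 and that of V0 -0.21, and the median of all tested genes was 0.002.

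**Figure D4:**
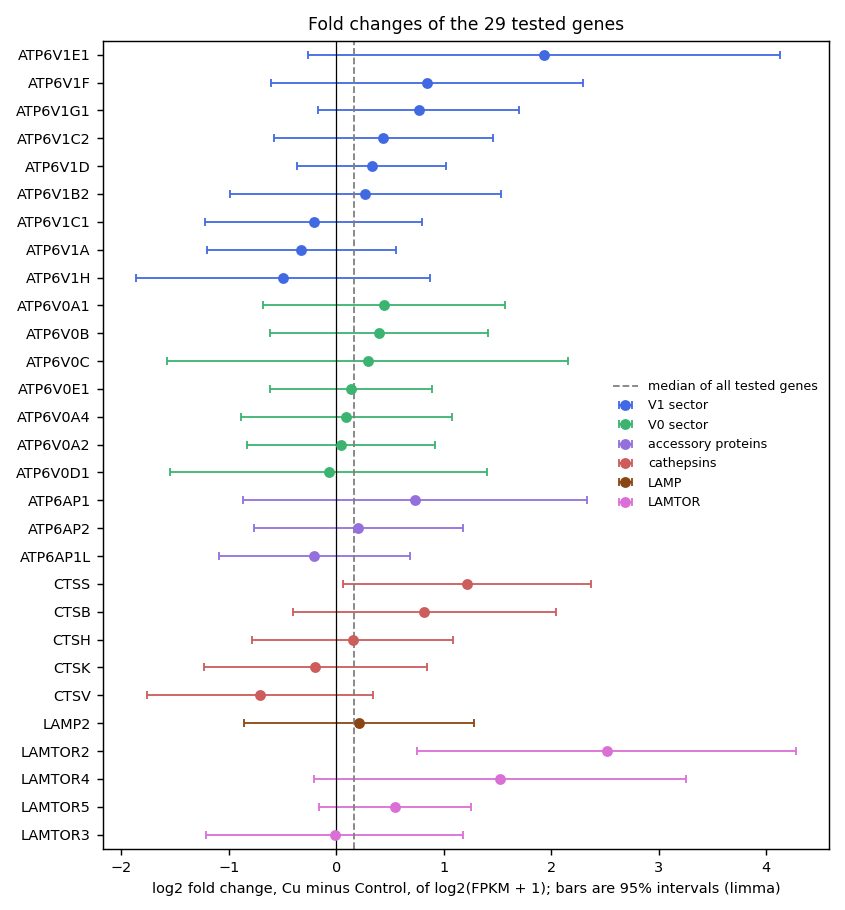
Log2 fold change of log2(FPKM + 1) between Cu and Control (horizontal axis, Cu minus Control) for each of the 29 tested members, coloured by role, with the 95% interval of limma as bars. The dashed line marks the median of all tested genes, and the intervals of LAMTOR2 and CTSS are those that lie above 0.

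Of 18 tested genes of mTORC1, the Rag GTPases and the TFEB factors, which control lysosomal genes, 0 passed an unadjusted p of 0.05. For this list and the next, the background over all tested genes was 5.58% higher and 1.43% lower. The median log2 fold change of the 18 genes was 0.13. That median was -0.099 without Cu 1 and -0.14 after quantile normalization. Of 19 tested genes for mannose 6-phosphate tagging and sorting, which deliver hydrolases to lysosomes, 0 passed an unadjusted p of 0.05. Their median was 0.27, and it was 0.0075 without Cu 1 and -0.0095 after quantile normalization. Of 15 tested genes for lysosome positioning and fusion, 2 were higher and 0 lower at an unadjusted p of 0.05, against 5.58% and 1.43% of all tested genes. These were BLOC1S2, a subunit of BORC, with 8.58 and 9.40 FPKM in the Controls and 28.0 and 16.8 FPKM in the Cu libraries, and VPS11, a core subunit of the HOPS tether, with 0.34 and 0.55 FPKM in the Controls and 1.97 and 1.27 FPKM in the Cu libraries. In both genes the groups did not overlap, at log2 fold changes of 1.19 for BLOC1S2 and 0.85 for VPS11, with adjusted p of 0.656 and 0.685 by limma. VPS11 entered the test only through the Cu libraries, which favours an upward call, so it is not counted as support. Of the 15 tested genes of this list, 14 reached 1 FPKM in a Control library. The median of the positioning and fusion list was 0.39, and -0.047 without Cu 1.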

How the data were processed

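RNA-seq of porcine metaphase II oocytes was analysed in 2 Control and 2 Cu libraries, grouped and numbered by their titles. Concentration, culture time and oocytes per library are from the paper. The authors deposited FPKM, rounded to 2 decimals, in 30684 rows of which 16050 hold values, with the authors' mean FPKM of each group beside them. In every row, 3 times that mean less the libraries given was a whole number of hundredths of at least 0 (tolerance 0.05 hundredths), the form of a mean over 3 libraries. The paper describes filtering with SOAPnuke, mapping with HISAT2 and Bowtie2 and quantification with RSEM, while the submitters' processing notes name TopHat2, Cufflinks, Cuffnorm and Cuffdiff and the build Sscrofa11.1. Which of these made the table, and whether strand was used, is not given in the sources used here. Paralogues and overlapping genes may therefore share reads. Above 0, values began at the rounding limit of 0.01 in all libraries, so no steps of whole reads could be read from them, and depth is unknown.

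The 8541 genes that reached 1 FPKM in at least 2 libraries were tested on log2(FPKM + 1), using limma 3.58.1 under R 4.3.3 with a variance trend in eBayes. P-values were adjusted by the Benjamini-Hochberg method over these genes. The study used a count-based test, which needs counts. The fit was also run on simulated data, and the outcome is not given or used as support here. Fold changes are Cu minus Control on this scale, which makes changes of weakly expressed genes smaller. The members and gene lists were chosen with earlier results of these data known. All members are named, with values per library for those at a mean of 5 FPKM or more or an unadjusted p of 0.05 or less. Other values per library are of members chosen after they were seen. From the other lists, genes at an unadjusted p of 0.05 or less are named, at most 3 per direction. All 41 identifiers and symbols of the members matched RefSeq Sscrofa11.1, from which the coordinates were taken. No sequences were analysed here. Alternatives were other filters, a pseudocount of 0.1, quantile normalization, no variance trend, each library left out and the authors' means.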

Additional observations from a re-analysis of the deposited data

How the results depend on the processing

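No paired analysis was possible because the groups share only 1 replicate number. Without a filter on low values 1 of 40 members was lower at an unadjusted p of 0.05, against 1.53% of all tested genes. With 1 FPKM required in all 4 libraries, 1 of 28 members was higher instead of 2 of 29, against 5.53% of all tested genes. After quantile normalization 1 of 29 members was higher, against 4.23%. With each library left out in turn, between 0 and 13 members were higher and between 0 and 3 lower at an unadjusted p of 0.05, and between 0 and 9 had an adjusted p of 0.05 or less. The 9 arose without Cu 3, where Cu 1 alone was set against the Controls and assumed to vary like them, and 1, LAMTOR2, arose without Cu 1. Each of the fits with a library left out had 1 library in a group, so no call is drawn from these counts. The share of all tested genes that passed, in either direction and after adjustment, also rose without Cu 1 and without Cu 3. The rise in these counts was therefore not limited to the members. The median log2 fold change of the members stayed between 0.049 and 0.48 in these fits. That of all tested genes was 0.002 without Cu 1 and 0.31 without Cu 3. A pseudocount of 0.1 and a fit without the variance trend changed no direction and no call of the 29 tested members.

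After quantile normalization the log2 fold change was -0.051 for LAMP2, -0.14 for ATP6V0A2, -0.11 for CTSH, -0.0068 for ATP6V0E1 and -0.12 for ATP6V0A4. By the authors' means, which have the form of means over 3 libraries a group and so take in a library of each group not analysed here, it was 0.017 for ATP6AP1L, -0.035 for ATP6V0A2, -0.00051 for CTSH, 0.25 for ATP6V1A, 0.097 for ATP6V0D1, 0.10 for CTSK and -0.22 for ATP6V1C2. The cause of these reversals was not tested. With each library left out in turn, 11 of 29 members kept their direction. For the other 18 it ranged from -0.25 to 0.80 for ATP6V1B2, from -0.26 to 0.68 for LAMP2, from -0.084 to 0.39 for CTSH, from -0.22 to 0.63 for ATP6AP2, from -0.95 to 0.81 for ATP6V0D1, from -0.21 to 0.30 for ATP6V0A2, from -0.081 to 0.36 for ATP6V0E1, from -0.84 to 1.43 for ATP6V0C, from -0.66 to 0.27 for CTSK, from -0.73 to 0.70 for LAMTOR3, from -0.46 to 0.05 for ATP6AP1L, from -0.087 to 0.97 for ATP6V0A1, from -0.24 to 1.70 for ATP6AP1, from -0.12 to 0.91 for ATP6V0B, from -0.72 to 0.30 for ATP6V1C1, from -0.29 to 0.48 for ATP6V0A4, from -0.033 to 0.91 for ATP6V1C2 and from -1.3 to 0.28 for ATP6V1H.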
